A study of Ovis aries with 30 samples.

Results

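This is the comparison of liver RNA between ram lambs of ewes exposed to biosolids and ram lambs of control ewes. Biosolids are treated sewage sludge spread on pasture as fertiliser, and they carry many environmental chemicals at low levels. The libraries were chosen by their labels for sex and maternal exposure. They numbered 13 of the 30 in the series, 6 from biosolids rams (animals 8690, 8695, 8735, 8762, 8764 and 8770) and 7 from control rams (8351, 8364, 8382, 8394, 8408, 8425 and 8428). The seventh biosolids ram, 8778, was left out because 87.5% of its counts lay on ribosomal RNA rows and 2.34 M on all other genes. Exposure was of the mother, before conception and during gestation, and the lambs are the first generation (F1). Each library came from a piece of frozen liver of a different animal. The sources used here give no breed, age at sampling, litter or sequencing batch. The animal numbers of the groups do not overlap, so anything that follows the numbering cannot be told apart from exposure, and the tests took the lambs as independent.

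The liver makes most plasma proteins, among them the acute phase proteins, whose synthesis by hepatocytes follows cytokines such as interleukin 6 and interleukin 1. It also makes glucose, which in ruminants comes largely from propionate and amino acids because little glucose is absorbed from the gut, and it builds cholesterol and bile acids. Many foreign chemicals are sensed in hepatocytes by receptors such as the aryl hydrocarbon receptor, and CYP1A1 is the best known gene that this receptor switches on.

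The libraries held 32.2 to 51.9 M counts, 32.7 to 51.9 M in controls and 32.2 to 43.3 M in biosolids rams, with 0.299 to 6.67% on ribosomal RNA rows. Albumin (ALB) ranked first of all genes in CPM (counts scaled to a common library size) per kilobase of exon, at 20585 to 35543, and AHSG, another plasma protein of hepatocytes, ranked second. Of the neutrophil genes S100A8 and S100A9 stayed at or below 0.39 and 1.26 CPM, but CSF3R lay at 2.33 to 9.92 CPM. The red cell genes ALAS2 and HBB reached 0.286 and 3.89 CPM and the muscle gene ACTA1 0.12 CPM. The macrophage gene CD68 was at 0 in all 13 libraries, although MARCO and C1QA, which also mark macrophages, lay at 14.2 to 81.5 and 84.0 to 286 CPM. The 10 tested rows of chromosome Y summed to 163 to 185 CPM in every ram. LOC101112291, a long non-coding RNA of chromosome X, stood at 303 CPM in control 8408 and at no more than 2.08 CPM in the other 12. Whether RNA of another sample contributed to library 8408 was not tested. The acute phase and interferon list medians, IFIT1, MX1 and the counts of genes without overlap are also given without it. Control 8408 was among the higher controls for the macrophage, T and NK, and B and plasma cell lists, which are given only with it. On the first principal component of log2 CPM, which held 22.65% of the variance, control 8364 (34.5) and biosolids rams 8735 (56.5) and 8764 (37.9) stood apart from the other 10, which lay between -25.5 and 2.14. Control 8408 stood apart on the second, at 46.1.

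**Figure D1:**
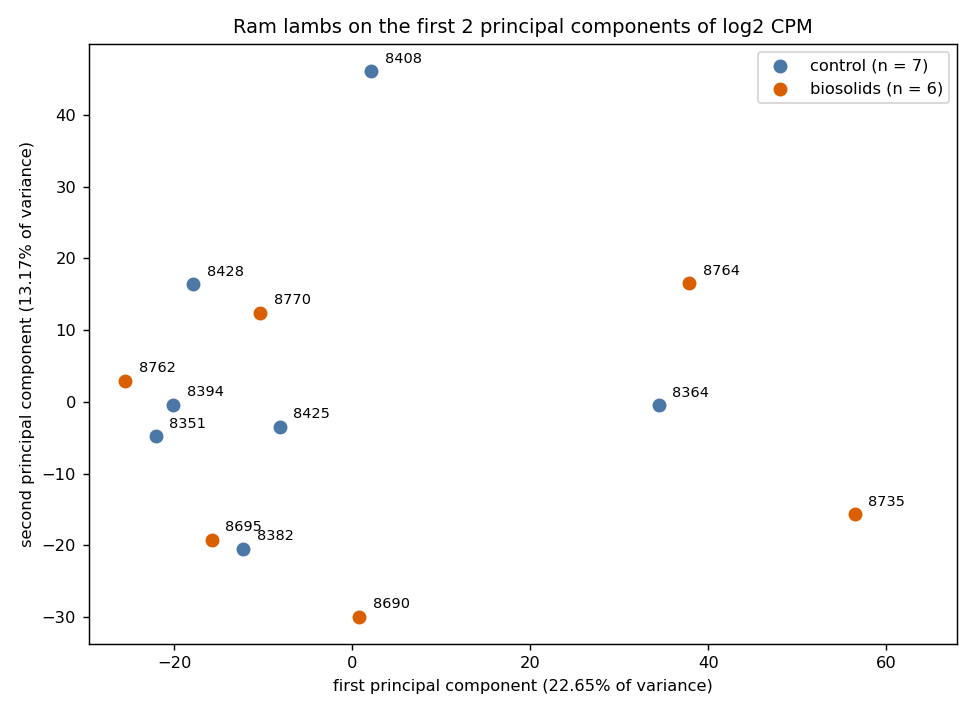
Each point is a ram placed by its first (x axis) and second (y axis) principal component of log2 CPM over the 14151 genes tested, in arbitrary units. Rams 8364, 8735 and 8764 lie to the right of the other 10, 1 from the control group and 2 from the biosolids group, and control 8408 lies highest.

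Across the genes, no difference between biosolids and control rams passed the test. Of the 31304 gene rows, 14151 reached at least 1 CPM in 6 of the 13 libraries and were tested, and 0 of them (0%) had a p under 0.05 after Benjamini-Hochberg adjustment in edgeR's quasi-likelihood test. Before adjustment 530 genes (3.75%) had a p under 0.05, 257 higher (1.82%) and 273 lower (1.93%) in biosolids rams. A p under 0.05 comes up more often than that, on average, when no gene differs. limma voom called 0 and DESeq2 called 8 (0.0565%), 7 lower (0.0495%) and 1 higher. The median log2 fold change of all genes tested was 0.01, and 52.5% of them were fitted higher and 47.5% lower. The adjusted p of each tested gene named below lay between 0.971 and 0.996 by edgeR's quasi-likelihood test, so the values given are differences that did not pass. For the 8 genes that DESeq2 called, the adjusted p by DESeq2 was the smallest of any alternative, and under the others it lay between 0.32 and 1.0.

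For 14 genes (0.0989%) every biosolids ram lay on the same side of every control ram, 6 lower (0.0424%) and 8 higher (0.0565%). Random ordering of the rams alone also separates the groups for some of so many genes. The count was not tested against that. The lower genes were LOC105602959, MUC1, SDS, ITIH4, GDE1 and TOMM34. The higher genes were PFKFB1, TMEM38B, ARHGAP24, LOC132659510, HES2, STX18, TTLL10 and MAPT. The first 4 of the lower genes differed by at least 1.75-fold in the fitted level, whereas GDE1, a phosphodiesterase of lipid head groups, and TOMM34, a cytosolic partner of mitochondrial import, differed by 1.17-fold and 1.27-fold.

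SDS, serine dehydratase, which turns serine into pyruvate and so feeds amino acid carbon into glucose synthesis, had the smallest adjusted p of DESeq2. The gene lies on chromosome 17 (61103746 to 61111724, assembly ARS-UI_Ramb_v3.0, as all coordinates here). SDS stood at 40.1 (lowest), 89.2 (median) and 198 CPM (highest) in controls and at 7.84, 24.2 and 36.6 CPM in biosolids rams. Controls 8394 and 8364 were highest, and biosolids ram 8770 was lowest. The mean was 98.5 ± 60.2 CPM in controls and 23.7 ± 10.3 CPM in biosolids rams (SD, n = 7 and 6), a fitted level 4.16-fold lower. On the log2 scale the difference was -2.05 ± 0.43 (SE). DESeq2 gave it an adjusted p of 0.000363, where edgeR's test gave 0.971. With ram 8778 included, the log2 fold change was -1.32.

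SDS was the exception among its neighbours in metabolism. Of 31 tested genes of gluconeogenesis and amino acid use, 23 had a lower and 8 a higher fitted level in biosolids rams. Their median log2 fold change was -0.18. An unadjusted p under 0.05 was found for 1 in each direction, against 1.82% of all genes higher and 1.93% lower. The second was KYNU, kynureninase of tryptophan breakdown, which was higher, at 60.4 to 101 CPM in controls and 82.3 to 94.9 CPM in biosolids rams, with control 8364 above all biosolids rams. The next by p were BHMT, which remethylates homocysteine, at -0.34 ± 0.19 (SE), and GPT2, the mitochondrial alanine aminotransferase, at -0.55 ± 0.30. PCK1 and G6PC1, the enzymes of the gluconeogenic path itself, differed by -0.24 ± 0.24 and -0.18 ± 0.20, and TAT, tyrosine aminotransferase, by -0.09 ± 0.21. The groups overlapped for each of these genes other than SDS.

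Acute phase genes had lower fitted levels in biosolids rams throughout the list. All 24 members tested, of 30 listed, were lower, with a median log2 fold change of -0.42 where that of all genes was 0.01, and 8 of the 24 had an unadjusted p under 0.05 against 1.93% of all genes. The members with the smallest p were LCN2, IL1RN, ITIH4 and LBP. The list was drawn up with earlier results of these lambs known, so its direction is not independent evidence, and its members were measured in the same libraries. In whole tissue, fewer hepatocytes and less RNA per hepatocyte cannot be told apart.

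LCN2, lipocalin 2, binds the iron-carrying siderophores of bacteria and lies on chromosome 3 (8108566 to 8128289). Controls held 13.01 (lowest), 23.6 (median) and 47.4 CPM (highest) and biosolids rams 5.19, 9.56 and 15.8 CPM. Control 8364 was highest and biosolids rams 8690 and 8735 lowest, and the groups overlapped only through control 8382, at 13.01 CPM, and biosolids ram 8695, at 15.8 CPM. The fitted log2 difference was -1.40 ± 0.32 (SE, 95% interval -2.08 to -0.72), and DESeq2 gave an adjusted p of 0.015. Without rams 8364, 8735 and 8764 it was -0.95.

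ITIH4, a heavy chain of the inter-alpha-trypsin inhibitor family that is a major acute phase protein of several farm animals, did not overlap between the groups. It stood at 3605 to 5578 CPM in controls, with a median of 4721, and at 1470.2 to 3507 CPM in biosolids rams, with a median of 2901. The log2 difference was -0.81 ± 0.22 (SE), and rams 8764 and 8735 were the lowest. LBP, which hands bacterial lipopolysaccharide to CD14, held 591, 1308 and 2103 CPM (lowest, median and highest) in controls and 329, 524 and 1260.0 CPM in biosolids rams, a log2 fold change of -1.04 ± 0.35. Biosolids ram 8762 reached the range of the higher controls, and controls 8382 and 8408 fell among the biosolids rams. IL1RN, the secreted antagonist of the interleukin 1 receptor, stood at 63.8 to 102 CPM in controls and 50.0 to 76.3 CPM in biosolids rams, with a log2 fold change of -0.55 ± 0.14.

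The remaining members of the acute phase list with an unadjusted p under 0.05 were HPX, the haem carrier hemopexin, at -0.49 ± 0.19 (SE), SOCS3, the feedback inhibitor of interleukin 6 signalling, at -0.88 ± 0.37, STAT3, the factor that carries that signal to the nucleus, at -0.42 ± 0.19, and ORM1, alpha-1-acid glycoprotein, at -2.26 ± 0.98. ORM1 spanned 38.8 to 3344 CPM in controls, and the highest value was again that of 8364. CRP, C-reactive protein, was also highest in 8364, at 9413 CPM, where the other controls had 3079 to 4574 CPM and biosolids rams 2611 to 3866 CPM. At the other end of the list A2M, alpha-2-macroglobulin, differed by -0.02 ± 0.25.

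**Figure D2:**
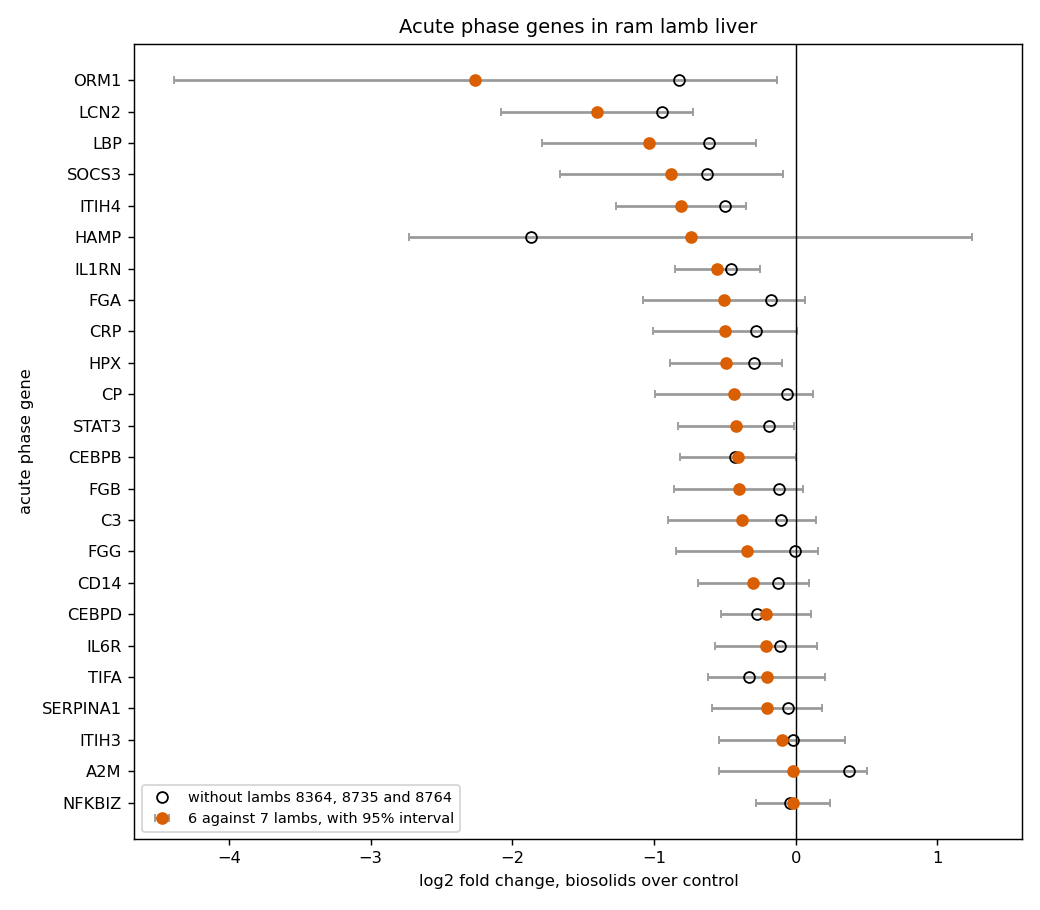
The x axis gives the log2 fold change of each tested acute phase gene (y axis), biosolids over control rams, as filled points with 95% intervals, and open points give the value without rams 8364, 8735 and 8764. All 24 filled points lie below 0, from ORM1 at -2.26 to NFKBIZ and A2M at -0.02, and most open points lie nearer to 0.

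The mean log2 CPM of the acute phase list was 8.87 to 9.40 in controls (median 9.25) and 8.31 to 9.09 in biosolids rams (median 8.62). Control 8364 had the highest mean of all and biosolids rams 8735, 8764 and 8690 the 3 lowest, while 8762 and 8695 lay within the control range. Rams 8735 and 8764 are also the 2 biosolids rams that stood apart on the first component. Without them and 8364 the list's median log2 fold change was -0.23, and over the 13 fits that left out 1 ram it lay between -0.52 and -0.33, with -0.47 without 8408. The 3 tested neutrophil markers, among them CSF3R (-0.52 ± 0.33), had a median of -0.12. Without rams 8364, 8735 and 8764 that median was -0.68, and with 1 ram left out it lay between -0.53 and 0.11. All 12 counted markers of that list summed to 27.6 to 52.05 CPM in controls and 23.0 to 59.1 CPM in biosolids rams, and their part in the difference was not tested. The part of the first component in this difference was not tested.

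Complement and coagulation genes, which share the hepatocyte as their source, had a lower fitted level for 29 of 31 members, and a higher one for 2. Their median log2 fold change was -0.18, and 1 member had an unadjusted p under 0.05 on the lower side, near the 1.93% of all genes. It was C5, the complement component cleaved to the attractant C5a, at -0.63 ± 0.23 (SE). C5 lay at 2074 to 3287 CPM in controls and at 914 to 2266 CPM in biosolids rams, with 8764 and 8735 the lowest. SERPING1, the C1 inhibitor, PLG, plasminogen, and MASP2, a protease of the lectin pathway, had log2 fold changes of -0.41 ± 0.20, -0.35 ± 0.18 and -0.27 ± 0.15. Without rams 8364, 8735 and 8764 the median of the list was -0.07, and without 8735 alone it was -0.09.

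Genes that correlated most with LCN2 over the 13 rams (Pearson r of log2 CPM) were RAP1GAP (0.94), IL1R1 (0.94), QARS1 (0.92), HPX (0.92) and LOC101119509 (0.90). IL1R1 encodes the receptor that IL1RN blocks. These values describe likeness over rams whose groups differ in mean, and they share the libraries, so no p is given.

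Immediate early genes, which are transcribed within minutes of a stimulus, were also lower on the whole. Of 26 tested members, 24 had a lower and 2 a higher fitted level, the median log2 fold change was -0.33, and 7 had an unadjusted p under 0.05, all lower, against 1.93% of all genes. BTG2, an antiproliferative cofactor, had 71.0, 86.6 and 115 CPM (lowest, median and highest) in controls and 54.2, 61.0 and 84.8 CPM in biosolids rams, a log2 fold change of -0.49 ± 0.14 (SE). JUNB, a subunit of the AP-1 factor, was at -0.55 ± 0.18, MYC at -0.45 ± 0.15 and CCN1, a matricellular target of the Hippo pathway, at -0.61 ± 0.22. FOS, the partner of the JUN proteins, rested on 3 controls, 8425, 8351 and 8364, at 36.7, 29.6 and 26.3 CPM, where the other 4 held 4.36 to 9.01 CPM and biosolids rams 3.36 to 9.85 CPM. EGR1 differed by -0.53 ± 0.35. Without 8364, 8735 and 8764 the median of the list was -0.42.

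Interferon-stimulated genes had the lowest median of the lists with at least 5 tested members. All 29 tested members were lower in biosolids rams, the median log2 fold change was -0.64, and 11 had an unadjusted p under 0.05, against 1.93% of all genes. The difference lay in part of the control group. IFIT1, which binds foreign RNA, was highest in control 8428 (256 CPM) and control 8408 (139.6 CPM), and lay at 18.98 to 71.5 CPM in the other 5 controls and at 16.4 to 41.1 CPM in biosolids rams, a log2 fold change of -1.67 ± 0.58 (SE). MX1, an antiviral GTPase, had 467, 233 and 182 CPM in controls 8428, 8408 and 8382, 46.5 to 89.0 CPM in the other 4 and 51.5 to 88.2 CPM in biosolids rams. DHX58, an RNA sensor, and IRF7, the factor that amplifies the interferon response, were likewise highest in 8428 and 8408, with log2 fold changes of -0.73 ± 0.28 and -1.10 ± 0.44. By list mean, 8428, 8408, 8382 and 8364 lay above all biosolids rams, at 4.87 to 6.37 log2 CPM against 4.04 to 4.78, and controls 8351, 8394 and 8425 lay among them. Leaving out 8428 moved the median of the list to -0.37, the nearest to 0 of the fits without 1 ram. The farthest of those fits gave -0.75, and without rams 8364, 8735 and 8764 the median was -0.87. Without 8408 the median was -0.56, and IFIT1 and MX1 differed by -1.52 and -1.16.

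**Figure D3:**
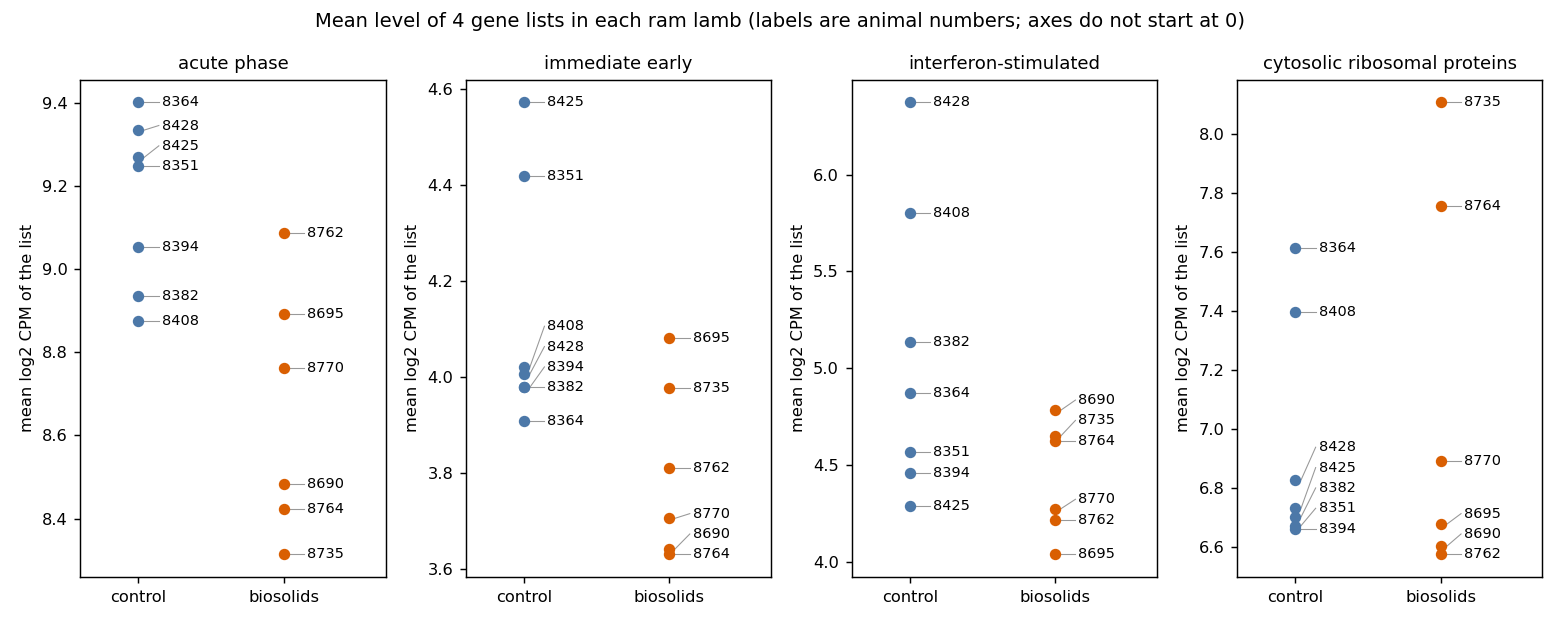
The y axes give the mean log2 CPM over the tested members of 4 gene lists in each ram, by group on the x axis, with animal numbers beside the points. Acute phase means are lower in most biosolids rams, interferon means are spread among controls with 8428 at 6.37, and ribosomal protein means are highest in 8735, 8764 and 8364.

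A small gene on chromosome 14, MT1B (23519733 to 23521742), stood among the 10 smallest p on the lower side. It encodes a metallothionein, a small protein that binds zinc, copper and cadmium. MT1B had 7.00 (lowest), 30.7 (median) and 46.0 CPM (highest) in controls and 4.53, 11.6 and 14.5 CPM in biosolids rams. Control 8428, at 7.00 CPM, lay within the biosolids range and the other 6 controls lay above it. The difference was -1.57 ± 0.41 (SE) on the log2 scale, and DESeq2 gave an adjusted p of 0.03. The adjacent protein-coding genes LOC101117184 (23514101 to 23515907), LOC101117691 (23524839 to 23526197) and LOC101117955 (23533058 to 23534018), looked at after MT1B was seen, had log2 fold changes of -1.11 ± 0.32, -1.06 ± 0.37 and -1.10 ± 0.40. LOC101117184 stood at 201 to 830.0 CPM in controls and 126 to 392 CPM in biosolids rams. Control 8428 was the lowest control for all 4 genes. Reads of near-identical copies can be shared in counting, so the split among these genes is uncertain. The list of metal and iron handling genes, which does not hold them, had a median log2 fold change of -0.03, with 14 of 22 members lower and none at an unadjusted p under 0.05.

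MUC1, a membrane mucin of epithelia, had lower levels in every biosolids ram than in any control. The gene lies on chromosome 1 (105380397 to 105385021). Controls held 14.7, 19.8 and 21.6 CPM (lowest, median and highest) and biosolids rams 7.06, 9.63 and 14.6 CPM. The closest pair was control 8425, at 14.7 CPM, and biosolids ram 8695, at 14.6 CPM, so that the groups touched without overlapping. With a log2 fold change of -0.84 ± 0.18 (SE), its adjusted p was 0.0201 by DESeq2. Of the mucous epithelium markers 8 were under the low-count filter. Of the 6 tested, MUC1 included, 5 were lower, and the highest log2 fold change among the 6 was 0.37. Among the lower was PIGR, the receptor that carries IgA across epithelia, at -0.75 ± 0.31. PIGR spanned 225 to 426 CPM in controls and 82.5 to 366 CPM in biosolids rams. TFF2, a trefoil peptide, was at -0.42 ± 0.45, and MUC5AC, a secreted mucin, at -0.04 ± 0.42, with 10.9 to 67.1 CPM in controls and 10.9 to 46.9 CPM in biosolids rams. The mucins' partner FCGBP and the trefoil peptide TFF3 lay at 1.47 to 17.1 and 0 to 2.95 CPM.

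PMVK, phosphomevalonate kinase of the cholesterol pathway, lies on the same chromosome (105089641 to 105155088), 225.3 kb from MUC1. It stood at 138, 155 and 209 CPM (lowest, median and highest) in controls and 85.8, 109 and 143 CPM in biosolids rams. Only biosolids ram 8695, at 143 CPM, lay within the control range. DESeq2 gave PMVK an adjusted p of 0.0407, and the log2 fold change was -0.58 ± 0.14 (SE). MUC1 and PMVK correlated over the 13 rams with a Pearson r of 0.80, the fourth highest of all genes with MUC1 after PRKCZ (0.87), GDE1 (0.81) and WBP1L (0.81). LOC121816974 (0.80) came next. Group means were not removed and both MUC1 and PMVK were lower in biosolids rams, so r holds that shared difference too. Whether the genes are regulated together was not tested.

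The cholesterol list ran the other way. Of 22 tested genes of cholesterol synthesis and uptake, 19 had a higher and 3 a lower fitted level in biosolids rams. Of all genes 52.5% were higher. The median log2 fold change of the list was 0.17. The 2 at an unadjusted p under 0.05 among the higher were IDI1, isopentenyl diphosphate isomerase, at 0.39 ± 0.16 (SE), and SQLE, squalene epoxidase, at 0.95 ± 0.44. PMVK was the sole member at such a p among the lower. Of all genes 1.82% had such a p on the higher side and 1.93% on the lower. SQLE had 0.766 to 4.73 CPM in controls and 1.42 to 11.04 CPM in biosolids rams, with 8770 the highest and 8735 the lowest of its group. INSIG1, which holds back the sterol sensor, was at -0.34 ± 0.18. The direction of the list stayed the same in each fit without 1 ram, with medians between 0.11 and 0.28.

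**Figure D4:**
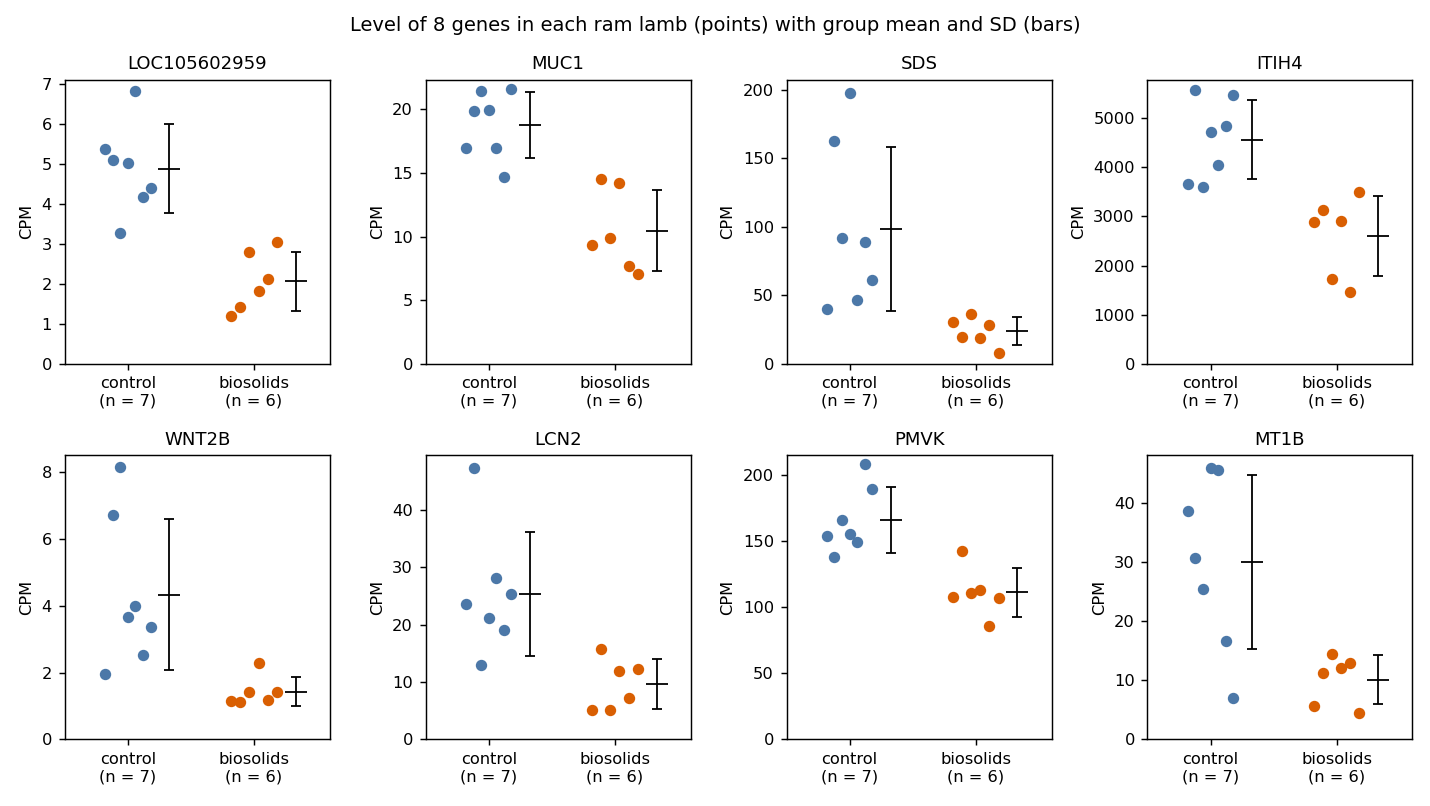
Each panel shows the CPM (y axis, from 0) of a gene in every control ram and biosolids ram (x axis), with the group mean and SD as bars. The groups are separate for LOC105602959, MUC1, SDS and ITIH4 and overlap for WNT2B, LCN2, PMVK and MT1B.

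TEAD4, a DNA-binding partner of the Hippo pathway's coactivators, was at 19.97, 30.0 and 42.1 CPM (lowest, median and highest) in controls and 15.6, 18.5 and 21.8 CPM in biosolids rams. Controls 8428 and 8364 lay within the biosolids range. TEAD4 differed by -0.63 ± 0.16 (SE) on the log2 scale. The Hippo list as a whole was balanced, with 11 of 20 tested members lower and a median of -0.02. CCN1 was the other member at an unadjusted p under 0.05, also lower, against 1.93% of all genes. The genes most like TEAD4 over the 13 rams were FLOT2 (Pearson r 0.82), MNT (0.81), BLTP3A (0.80), BCL2 (0.79) and ROGDI (0.79). As for MUC1, group means were not removed.

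WNT2B, a secreted Wnt ligand on chromosome 1 (89923116 to 89945269), held 1.96, 3.67 and 8.14 CPM (lowest, median and highest) in controls and 1.11, 1.30 and 2.29 CPM in biosolids rams. Biosolids ram 8762 lay above the lowest control, 8351, and the other 5 lay below all controls. WNT2B thus had a log2 fold change of -1.60 ± 0.32 (SE), and an adjusted p of 0.00327 by DESeq2. Its gene body overlaps that of ST7L on the other strand, and the strand setting of the counting is unknown. ST7L itself differed by 0.27 ± 0.15. The list of Wnt signalling and zonation genes, from which WNT2B is absent, had a median of -0.10 with 15 of 22 members lower.

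LOC105602959, a long non-coding RNA of chromosome 17 (71591015 to 71613376), had the smallest p of edgeR's quasi-likelihood test among all genes. Controls held 3.27, 5.02 and 6.83 CPM (lowest, median and highest) and biosolids rams 1.19, 1.97 and 3.04 CPM, without overlap. The log2 fold change was -1.24 ± 0.24 (SE), and DESeq2 gave an adjusted p of 0.0023. QSOX1, a secreted oxidase that forms disulfide bonds, completed the 10 lower genes with the smallest p, at 64.8 to 144 CPM in controls and 35.2 to 73.5 CPM in biosolids rams and a log2 fold change of -0.81 ± 0.20. LOC101118112, a protein-coding gene of chromosome 9 (15429193 to 15486365), differed by -0.61 ± 0.19. LOC114108606 was under the low-count filter, with 0.204 to 4.17 CPM in controls and 0 to 0.0927 CPM in biosolids rams, so that the groups did not overlap, and it was not tested. It was chosen with earlier results of these data known, and its biosolids values lie near 0. Without the filter, 17 genes higher and 10 lower of 25926 did not overlap.

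SPP1, osteopontin, a secreted protein of duct cells and macrophages, had a large difference and a large spread. It ranged from 2.16 to 80.4 CPM in controls, with a median of 20.9, and from 0.252 to 7.20 CPM in biosolids rams, with a median of 2.22. The 80.4 CPM were those of control 8364. Its log2 fold change was -3.14 ± 0.89 (SE). Of the 12 tested duct markers, SPP1 included, 9 were higher and 3 lower in biosolids rams, and the median was 0.12, with CFTR, the chloride channel of duct cells, at 0.44 ± 0.19.

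Ranked by p, 6 of the first 10 genes on the higher side carried only a locus identifier. DESeq2 called LOC101105149, a protein-coding gene of chromosome 3 (95632443 to 95633978), with an adjusted p of 0.0269. It had 0.559, 1.10 and 1.44 CPM (lowest, median and highest) in controls and 1.32, 2.36 and 6.62 CPM in biosolids rams, a log2 fold change of 1.65 ± 0.37 (SE). Biosolids rams 8735 and 8762 were the highest, and 8695 lay within the control range. The long non-coding RNAs LOC132659095, LOC132659109, LOC105609364 and LOC114117296 had log2 fold changes of 0.93 ± 0.23, 0.55 ± 0.15, 0.68 ± 0.19 and 0.83 ± 0.23, and the protein-coding LOC101107153 of 0.71 ± 0.20.

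PFKFB1, the liver enzyme that makes and breaks fructose 2,6-bisphosphate and so sets the balance of glycolysis and glucose synthesis, lies on chromosome X (52901461 to 53037483). It stood at 10.2, 16.3 and 17.7 CPM (lowest, median and highest) in controls and 17.7, 22.1 and 29.2 CPM in biosolids rams. The groups met at control 8408 and biosolids ram 8735 without overlapping. The log2 fold change was 0.53 ± 0.14 (SE). TMEM38B, a potassium channel of the endoplasmic reticulum, had 8.55 to 11.5 CPM in controls and 11.7 to 14.6 CPM in biosolids rams, a log2 fold change of 0.40 ± 0.11, with SDs of 1.15 and 1.24 CPM. ARHGAP24, which switches off Rac, stood at 7.08 to 10.96 and 11.4 to 18.9 CPM, with biosolids ram 8770 the highest, and differed by 0.51 ± 0.14.

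GNG5, a gamma subunit of G proteins, had 10.7 to 22.1 CPM in controls and 18.0 to 53.5 CPM in biosolids rams, and its 2 highest values were those of 8764 and 8735. Its log2 fold change of 0.95 ± 0.24 (SE) was 0.47 without those rams and 8364. The other genes without overlap differed by less. STX18, a syntaxin of the endoplasmic reticulum, stood at 8.04 to 10.1 CPM in controls and 10.2 to 11.9 CPM in biosolids rams, a log2 fold change of 0.28 ± 0.10. HES2, a transcriptional repressor, MAPT, the microtubule protein tau, TTLL10, a tubulin glycylase, and LOC132659510 were all under 5 CPM in every ram, with log2 fold changes of 0.50 ± 0.17, 0.40 ± 0.16, 0.74 ± 0.28 and 0.46 ± 0.15. Genes on the other strand overlap PFKFB1, GNG5, STX18, MAPT, LOC105609364 and LOC132659095, and likewise TEAD4 and TOMM34 among the lower genes, so these levels could hold reads of the partner. LOC132659095 is also overlapped on its own strand by LOC121818464, a long non-coding RNA with a log2 fold change of 0.64 ± 0.21.

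Genes of chemical sensing gave a mixed picture. CYP1A1 encodes a monooxygenase of planar aromatic compounds and held 127, 312 and 908 CPM (lowest, median and highest) in controls and 104, 167 and 239 CPM in biosolids rams. Control 8351 was the highest by far, and controls 8394 and 8364 lay within the biosolids range. The log2 fold change was -1.16 ± 0.36 (SE, 95% interval -1.93 to -0.38). Of the 11 tested targets of the aryl hydrocarbon receptor 9 were lower and 2 higher, with a median of -0.06, which was 0.08 without rams 8364, 8735 and 8764. AHR, the receptor itself, differed by -0.27 ± 0.22. NQO1, a quinone reductase that the receptor and the antioxidant factor NRF2 both induce, was at 0.52 ± 0.24, with biosolids rams 8764 and 8690 at 7.24 and 6.26 CPM and the other 4 at 3.16 to 3.43 CPM. TXN, thioredoxin, was at 0.69 ± 0.28, and the NRF2 list had 9 of 21 members higher and a median of -0.01. The drug metabolism list had 10 of 23 members higher and a median of -0.03. CYP1A1 was its sole member at an unadjusted p under 0.05, on the lower side, against 1.93% of all genes.

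Hormones made by the liver differed in single genes. ANGPTL4, an inhibitor of lipoprotein lipase that rises in fasting, was at 83.7 to 143 CPM in controls and 49.1 to 105 CPM in biosolids rams, a log2 fold change of -0.49 ± 0.18 (SE). THPO, thrombopoietin, which drives platelet formation, had 8.89 to 10.4 CPM in controls, and 5 of the 6 biosolids rams lay below that range, with 8695 at 10.3 CPM (-0.33 ± 0.12).

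FGF21, a hormone of fasting and protein shortage, stood at 71.1 CPM in biosolids ram 8762 and at 2.06 to 15.0 CPM in the other 5, against 1.57 to 9.80 CPM in controls. Its log2 fold change of 1.89 ± 0.78 (SE) was 0.54 without that ram. The same ram had 146 CPM of IGFBP1, a binding protein of insulin-like growth factors that insulin holds down, where the other biosolids rams had 777 to 1514 CPM, and the highest IGF1, at 506 CPM. Over the groups IGFBP1 differed by 0.39 ± 0.40 and IGF1 by 0.17 ± 0.27. HSD17B2, which oxidises oestradiol and testosterone to weaker steroids, had 8.28 to 23.5 CPM in controls and 8.67 to 51.0 CPM in biosolids rams, a log2 fold change of 0.79 ± 0.35.

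The lists of fat metabolism had medians close to that of all genes. Genes of fatty acid oxidation and ketogenesis had a median log2 fold change of -0.03, with 17 of 24 lower and none at an unadjusted p under 0.05, and those of fatty acid and triglyceride synthesis a median of -0.05, with 11 of 20 lower. The 95% interval was -0.64 to 0.16 for CPT1A, the gate of mitochondrial fat oxidation, -0.56 to 0.30 for PPARA, the receptor that controls it, -0.93 to 0.46 for SREBF1, -0.51 to 0.17 for FASN, fatty acid synthase, and -0.69 to 0.92 for SCD, the desaturase. ALB was at 57438 ± 9154 CPM in controls and 57805 ± 9453 CPM in biosolids rams (SD, n = 7 and 6), a log2 fold change of 0.01 ± 0.17 (SE). APOA1 and TTR, the carriers of cholesterol and of thyroxine, differed by -0.07 ± 0.14 and 0.02 ± 0.20, and AHSG by -0.29 ± 0.20. Of 17 hepatocyte markers 13 were lower and 4 higher, with a median of -0.14 and none at an unadjusted p under 0.05. Beside AHSG the smallest p of that list were those of FGB, a fibrinogen chain, at -0.40 ± 0.21, F2, prothrombin, at -0.24 ± 0.17, and ASGR2, a subunit of the asialoglycoprotein receptor, at -0.22 ± 0.16. Other export proteins are among the acute phase genes above, with ITIH4 at -0.81 and HPX at -0.49.

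Cytosolic ribosomal protein genes were fitted higher in biosolids rams for 71 of 75 members. Their median log2 fold change was 0.23, and 0 had an unadjusted p under 0.05. The list mean was 8.11 log2 CPM in 8735, 7.76 in 8764, 7.62 in control 8364 and 7.40 in control 8408, and 6.58 to 6.89 in the other 9. RPL30 and RPS4X, proteins of the large and small subunit, had the smallest p of the list, with log2 fold changes of 0.40 ± 0.19 (SE) and 0.43 ± 0.21. Without ram 8735 the median of the list was -0.02, and without 8364, 8735 and 8764 it was -0.18. Nuclear genes of oxidative phosphorylation followed the same rams, with 51 of 57 higher and a median of 0.16 that was -0.0035 without those 3. NDUFB3, a subunit of complex I, was at 11.4 CPM in 8735 and 2.61 to 5.84 CPM in the other 12. Genes of the mitochondrial genome had a median of 0.12, with 10 of 12 higher, and ND5 was highest in 8690 and 8764, at 28.9 and 26.5 CPM.

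GSDME encodes a gasdermin, which can open pores in membranes. It reached 135 CPM in biosolids ram 8735 and lay between 0.783 and 1.68 CPM in the other 12, so its log2 fold change of 4.41 ± 1.31 (SE) rests on that ram, and was 0.34 without rams 8364, 8735 and 8764. Cell cycle genes were lower for 17 of 18 tested members, with a median of -0.22, and this too followed a single library. MKI67, a marker of dividing cells, stood at 21.0 CPM in control 8428 and at 3.22 to 7.68 CPM in the other 12, and without 8428 the median of the list was -0.05.

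When all 13 rams were used, markers of the other liver cells had medians nearer to that of all genes than the acute phase list. Without rams 8364, 8735 and 8764 this no longer held for the macrophage, T and NK, and B and plasma cell lists. Nor did it then hold for the duct, mucous epithelium and neutrophil lists, with medians of 0.30, -0.52 and -0.68. Stellate cell and fibroblast markers had 17 of 24 lower and a median of -0.10, endothelial markers 8 of 19 lower and 0.01, macrophage markers 11 of 16 lower and -0.07, T and NK cell markers 13 of 16 lower and -0.13, and B and plasma cell markers 4 of 9 lower and 0.0024. On the higher side 1.82% of all genes had an unadjusted p under 0.05. CLEC1B, a lectin of liver sinusoidal endothelium, was the sole member of these 5 lists at such a p. It stood at 33.3 and 19.7 CPM in 8735 and 8764 and at 7.25 to 14.4 CPM in the other 11, a log2 fold change of 0.66 ± 0.27 (SE). Without rams 8364, 8735 and 8764 the T and NK, B and plasma and macrophage medians were -0.46, -0.35 and -0.31, farther from 0 than the -0.23 of the acute phase list. The stellate and fibroblast median was then 0.03 and the endothelial median 0.02. TAPBP, which loads peptide on MHC class I, was at -0.39 ± 0.15, the sole member of 14 antigen presentation genes at an unadjusted p under 0.05. ERN1, a sensor of unfolded protein in the endoplasmic reticulum, was at -0.49 ± 0.20. It was the sole member at such a p of 27 chaperone and stress genes, of which 22 were lower with a median of -0.14. On the lower side 1.93% of all genes had such a p.

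**Figure D5:**
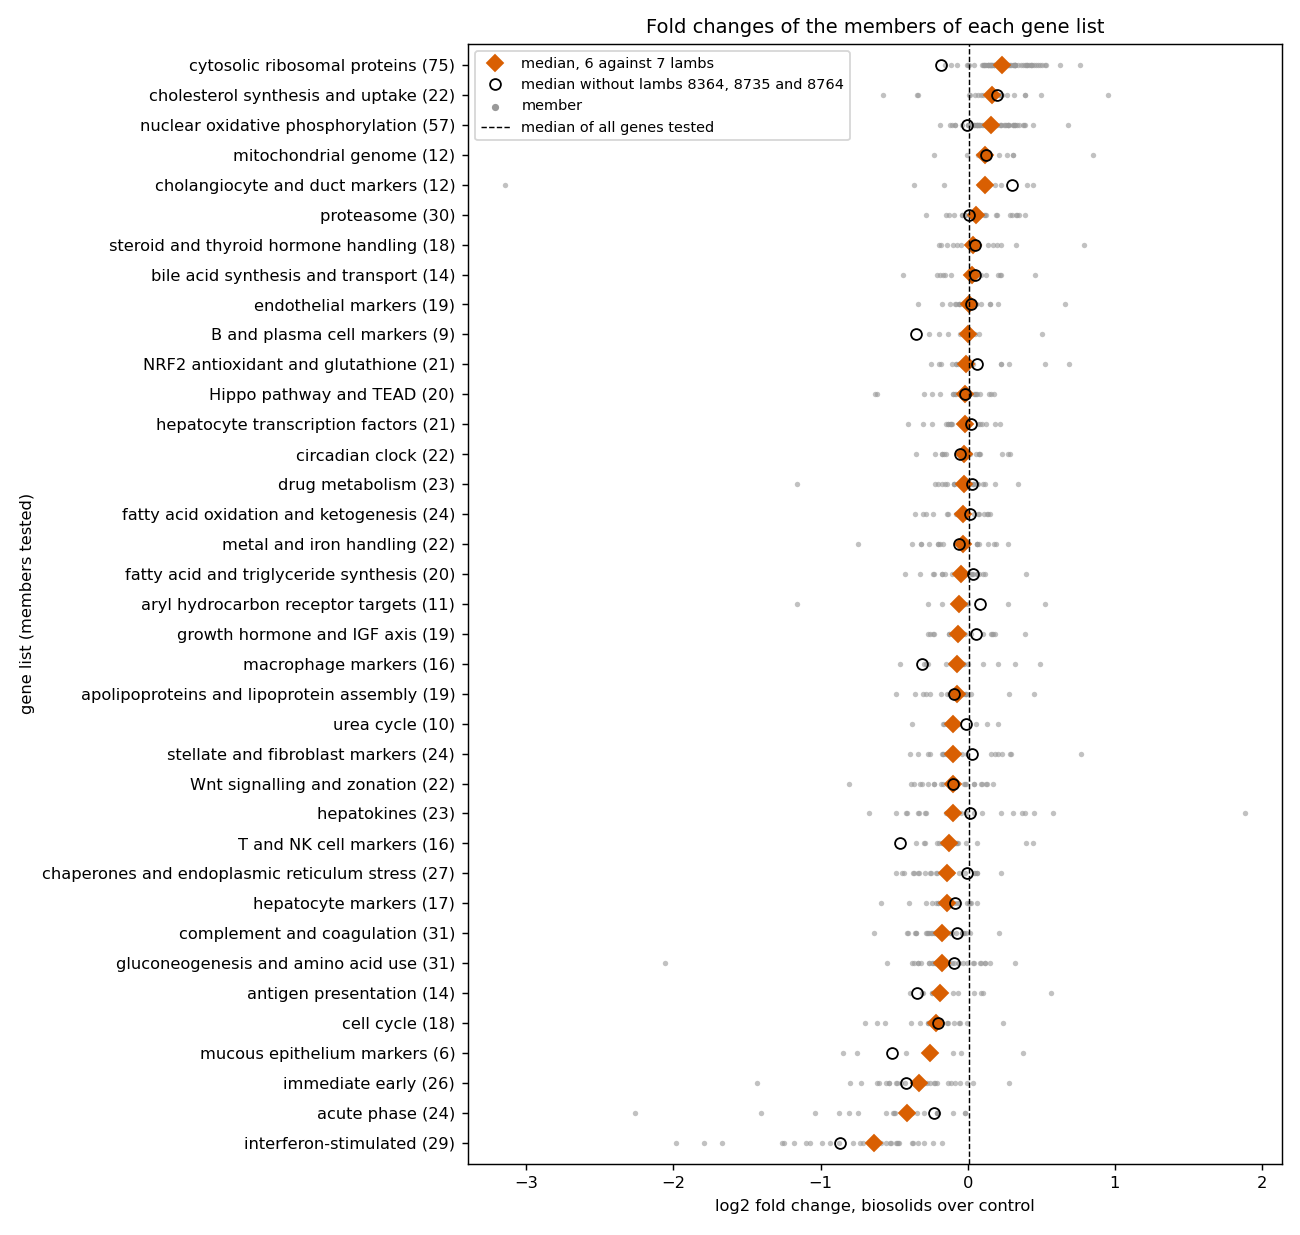
For each of the 37 gene lists with at least 5 tested members (y axis), grey points give the log2 fold change of the members (x axis, biosolids over control rams), filled diamonds their median and open circles the median without rams 8364, 8735 and 8764. Interferon-stimulated, acute phase and immediate early genes have the lowest medians, at -0.64, -0.42 and -0.33, and the ribosomal protein median moves from 0.23 to -0.18.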

How the data were processed

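Liver RNA of 13 ram lambs was compared, 6 biosolids against 7 control. Per the labels' protocols, TruSeq RNA libraries were run on a NovaSeq. The values are whole-number counts per gene as deposited, not normalized. STAR, featureCounts 1.5.0-p3, Trimmomatic, FastQC and MultiQC are named, per the submitters' processing notes, which give neither strand setting nor build. The table held 31304 gene rows, and 0 of its columns of samples were without a lamb. The pieces of 7 genes broken over 25 lines were joined. By symbol 28862 rows, and by locus tag 13, were found in RefSeq's gene table (assembly ARS-UI_Ramb_v3.0), and all 28868 coordinates compared were identical.

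Genes with at least 1 CPM in 6 of the 13 libraries were tested in edgeR 4.0.16 (R 4.3.3) with TMM scaling and the robust quasi-likelihood test, 2 group means and 11 residual degrees of freedom. Variation between lambs (edgeR's common BCV) was 29.2%. CPM are scaled to the TMM-adjusted total of tested genes, and list means use log2 CPM with a prior count of 2. Standard errors were derived from the fold change and F. Calls were made at a p under 0.05 after Benjamini-Hochberg adjustment over all tested genes. P-values measure the spread between these lambs. The test was checked on simulated counts. Alternatives used DESeq2 1.42.0, limma 3.58.1 and sva 3.50.0, among others.

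The members and the 42 gene lists were chosen with earlier results of these data known. Named genes are the 10 smallest p in each direction, for described lists mostly the 4 smallest p, and a fixed set. LOC101117184, LOC101117691, LOC101117955 and further list members were named after their values were seen. Of the fixed set HP was not analysed here, and some other named genes are not reported here. No sequence is printed.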

Additional observations from a re-analysis of the deposited data

Results flagged for a closer look

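Within each group, the ram farthest from the rest was compared with the range of its group on the log2 scale, for the tested genes named above and the list means, and flagged where the gap to its nearest neighbour took up most of that range (Dixon's criterion at 95%). 20 of the 306 groups tested were flagged, where chance flags about 1 in 20. No explanation was tested for these values.

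Control 8364 was highest among controls for KYNU at 101 CPM, CRP at 9413 CPM and FCGBP at 17.1 CPM, and lowest for the mean of fatty acid and triglyceride synthesis genes, at 5.2 log2 CPM. Control 8428 was highest for MKI67 at 21.0 CPM and for the cell cycle list at 3.5 log2 CPM, and lowest for TTLL10 at 0.304 CPM. Control 8408 was highest for LOC101112291 at 303 CPM and lowest for STAT3 at 301 CPM. Control 8382 was lowest for HPX at 1479 CPM, 8394 lowest for PFKFB1 at 10.2 CPM and 8351 highest for NQO1 at 4.99 CPM.

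Biosolids ram 8735 was highest for GSDME at 135 CPM and lowest for the list means of bile acid synthesis and transport, at 6.73 log2 CPM, and drug metabolism, at 7.54 log2 CPM. Biosolids ram 8762 was highest for WNT2B at 2.29 CPM and for apolipoproteins and lipoprotein assembly at 8.62 log2 CPM, and lowest for IGFBP1 at 146 CPM. Biosolids ram 8770 was highest for ARHGAP24 at 18.9 CPM, and 8690 lowest for MUC5AC at 10.9 CPM.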

How the results depend on the processing

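No paired analysis was possible because the groups share no replicate numbers. The counts of called genes, 0 higher and 0 lower by edgeR's quasi-likelihood test, were 1 higher and 7 lower with DESeq2 and stayed at 0 under RLE scaling, limma voom, no filter, filterByExpr, a surrogate variable, a fold-change limit, an adjusted p of 0.1, ram 8778 included, ribosomal RNA left out and each ram left out in turn. Counts of genes without overlap, 8 higher and 6 lower, were 6 higher and 2 lower with 8778, and ranged from 8 to 37 higher and 6 to 25 lower when 1 ram was left out, which by itself makes separation easier. They were 37 and 25 without control 8364, 21 and 25 without 8762, 16 and 15 without 8382, 15 and 14 without 8695, 14 and 6 without 8735 and 9 and 13 without 8408. Without 8364, 8735 and 8764 together, an alternative chosen after seeing the data, they were 102 and 76. Genes at an unadjusted p under 0.05 numbered 777 higher and 522 lower without 8364, 505 and 434 without 8762, 148 and 198 without 8428, 172 and 221 without 8735 and 173 and 237 without 8351.

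Direction reversed for PPARA with a surrogate variable (0.0074), for A2M with limma voom (0.11), a surrogate variable (0.0011) and without the 3 rams (0.38), for MUC5AC with limma voom (0.028) and for TTR with limma voom (-0.031), 8778 (-0.025), a surrogate variable (-0.10) and without the 3 rams (-0.25). The cause was not tested. With 1 ram left out, log2 fold changes crossed 0, with ranges of -0.053 to 0.088 for ALB, -0.27 to 0.011 for TAT, -0.11 to 0.12 for A2M, -0.086 to 0.043 for NFKBIZ, -0.15 to 1.13 for FCGBP, -0.064 to 0.34 for IGF1, -0.17 to 0.30 for SCD, -0.20 to 0.20 for MUC5AC and -0.13 to 0.12 for TTR. The median of 12 of 37 lists changed sign without the 3 rams, of 5 with 8778 and of 9 with a surrogate variable. Depth of 32.2 to 51.9 M counts leaves genes near 1 CPM, such as WNT2B and LOC101105149, with the fewest counts.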
